A study of Mus musculus with 8 samples.

Results

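The CXC chemokine ligands Cxcl1, Cxcl2, Cxcl3, Cxcl9, Cxcl10, Cxcl11, Cxcl12, Cxcl13, Cxcl14 and Cxcl16 were followed in hemophagocytes and in resting macrophages of the mouse spleen. They were picked by gene symbol from the platform's annotation of the array, which gave each of them 1 probe set, and they are 10 of the 19938 genes measured. Hemophagocytes are macrophages that have engulfed blood cells. They came from mice injected intraperitoneally on alternate days with 4 doses of 37.5 ug CpG1826, a DNA oligonucleotide that stimulates Toll-like receptor 9, plus 200 ug of 1B1.3A, an antibody that blocks the IL-10 receptor. Resting macrophages came from mice given 4 doses of 200 uL PBS on the same schedule. All mice were wild-type C57Bl/6j males of 8 weeks. Each group had 4 Affymetrix mouse Gene ST 1.0 arrays, numbered 2, 3, 5 and 6 for hemophagocytes and 3, 4, 5 and 6 for resting macrophages. Cells were taken from imprints of the spleen by laser microdissection, 20 per mouse, and pooled, so an array reads amplified RNA of few cells. The labels do not tie an array to its mice, so the p-values cover only the scatter among these samples, part of which may be technical. Treated mice gave no array of macrophages free of engulfed cells, so engulfment and the treatment cannot be told apart.

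CXC chemokines are small secreted proteins with a pair of cysteines separated by a single residue, and they steer leukocytes through G protein-coupled receptors. Cxcl1, Cxcl2 and Cxcl3 bind CXCR2 and draw neutrophils, and macrophages make them after Toll-like receptor and NF-kappa B signalling. Cxcl9, Cxcl10 and Cxcl11 bind CXCR3 on activated T cells and NK cells and are induced by interferons, Cxcl9 above all by interferon gamma. In C57BL/6 mice Cxcl11 yields no functional protein, and RefSeq lists the gene as a transcribed pseudogene. Cxcl12 binds CXCR4 and holds blood cell precursors in their niches, Cxcl13 binds CXCR5 and guides B cells into follicles, and Cxcl16, a membrane-bound ligand of CXCR6, also takes up oxidized lipoprotein as a scavenger receptor of macrophages. Cxcl14 is made constitutively in many epithelia, and its receptor is not settled.

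RefSeq places 7 of the 10 genes on mouse chromosome 5. Upstream sequence was at hand for 8 of them in RefSeq's GRCm38.p6 annotation, and the 250 bases before the gene's start were searched on both strands for 3 motifs. These were the interferon-stimulated response element GAAANNGAAA, the gamma-activated site TTCNNNGAA and the NF-kappa B consensus. Cxcl9, Cxcl10 and Cxcl13 are shown because they are the ligands that stood furthest above their own median on some arrays. Capitals mark motif matches, and every sequence runs 5′ to 3′ on the gene's own strand. Cxcl9 lies on the minus strand at chr5:92328080-92328329, Cxcl10 on the minus strand at chr5:92348890-92349139, and Cxcl13 on the plus strand at chr5:95956689-95956938.
Cxcl9: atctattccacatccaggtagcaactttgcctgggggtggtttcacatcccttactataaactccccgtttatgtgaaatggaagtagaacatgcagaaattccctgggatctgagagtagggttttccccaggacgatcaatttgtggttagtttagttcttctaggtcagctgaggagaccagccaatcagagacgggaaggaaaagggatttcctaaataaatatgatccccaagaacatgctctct
Cxcl10: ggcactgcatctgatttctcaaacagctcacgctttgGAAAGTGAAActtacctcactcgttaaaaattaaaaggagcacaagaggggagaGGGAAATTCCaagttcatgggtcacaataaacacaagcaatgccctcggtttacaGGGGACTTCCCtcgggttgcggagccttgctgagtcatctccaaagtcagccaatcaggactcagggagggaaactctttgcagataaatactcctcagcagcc
Cxcl13: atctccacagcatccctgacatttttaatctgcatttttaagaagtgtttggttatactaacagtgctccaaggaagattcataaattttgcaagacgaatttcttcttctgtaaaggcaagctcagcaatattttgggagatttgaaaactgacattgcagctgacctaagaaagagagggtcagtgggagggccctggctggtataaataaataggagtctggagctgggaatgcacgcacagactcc
Cxcl10 held 1 interferon-stimulated response element, 213 to 204 bases before its start. It also held matches to the NF-kappa B consensus at 159 to 150 bases and, as a pair of overlapping matches, at 104 to 94 bases. Cxcl9 and Cxcl13 held none of the 3 motifs in this window, which says only that these letters are not there. Of 32851 mouse promoters searched over the same length, 2.98% held the response element, 7.02% the gamma-activated site and 7.25% the NF-kappa B consensus.

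The neutrophil-attracting ligands Cxcl1, Cxcl2 and Cxcl3 are shown as 71-base windows around the one motif that all of them held. The windows lie on the plus strand at chr5:90891154-90891224 for Cxcl1, chr5:90903782-90903852 for Cxcl2 and chr5:90786008-90786078 for Cxcl3. Capitals mark overlapping matches to the NF-kappa B consensus.
Cxcl1: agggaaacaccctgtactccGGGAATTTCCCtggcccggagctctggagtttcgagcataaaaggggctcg
Cxcl2: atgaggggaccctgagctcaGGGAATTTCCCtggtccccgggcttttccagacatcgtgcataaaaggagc
Cxcl3: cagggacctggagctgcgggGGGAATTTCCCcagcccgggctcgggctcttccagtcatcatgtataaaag
The matched bases were the same in each, GGGAATTTCCC, and began 71, 97 and 73 bases before the start of Cxcl1, Cxcl2 and Cxcl3. Across the family, 4 of 8 genes held the NF-kappa B consensus (Cxcl10 being the other one), 2 held the response element (Cxcl10 and Cxcl14) and 1 held the gamma-activated site (Cxcl14). A match is a description of the letters and not evidence that a factor binds there.

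All values are log2 values as deposited, and changes are hemophagocyte minus resting macrophage. Array medians over all probe sets lay between 6.10 and 6.17, and arrays carry no read depth, so their number limits the precision. Taking each gene's median across the arrays as its baseline, values over 1 log2 unit above it numbered 154 on hemophagocyte 3 and 159 on hemophagocyte 5. They numbered 13 on hemophagocyte 2, 30 on hemophagocyte 6 and 7 to 16 on a resting array. The table holds no detection calls, so a low value cannot be told from no transcript. Of 12 macrophage markers 11 were measured, and their mean level was 6.32 to 7.02 on hemophagocyte arrays and 6.34 to 6.43 on resting arrays. The marker Cd68, a lysosomal glycoprotein, stood at 7.21, 9.66, 10.52 and 7.50 on hemophagocytes 2, 3, 5 and 6, against 7.29 to 7.50 on the resting arrays.

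None of the 10 ligands differed between hemophagocytes and resting macrophages past the test. In limma's fit over all genes, 0 of 10 were higher and 0 of 10 lower at an adjusted p under 0.05, where 0.01% and 0.0% of all genes were. At an unadjusted p under 0.05, 0 members were higher, against 1.53% of all genes, and 1 member, Cxcl3, was lower, against 5.05%. The groups overlapped in all 10 ligands, while 0.802% of all genes lay higher and 2.9% lower without overlap. The smallest adjusted p of a member was 0.747. The median change of the ligands was 0.0086, with 6 of 10 above 0, beside a median of -0.04 and 36.1% above 0 over all genes. Cxcl9 and Cxcl10 were each high on 1 hemophagocyte array, and Cxcl13 was high on arrays of both groups.

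**Figure D1:**
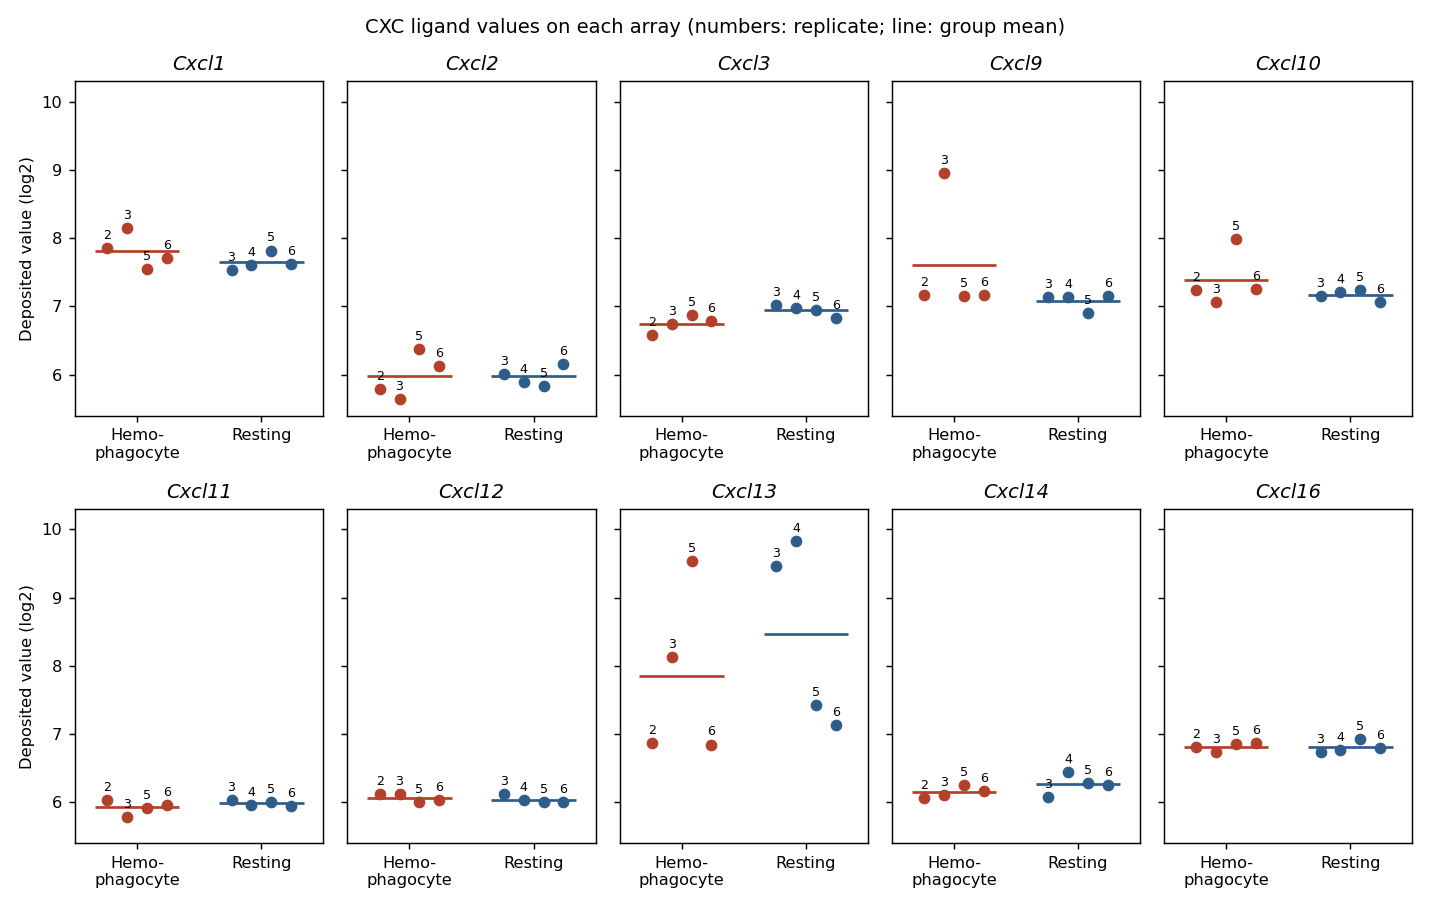
Deposited log2 value (vertical axis) of each of the 10 CXC ligands on every array, with 4 hemophagocyte arrays on the left and 4 resting arrays on the right of each panel. Numbers are replicate numbers and lines are group means. Cxcl9 stands at 8.95 on hemophagocyte 3 alone, Cxcl10 at 7.99 on hemophagocyte 5 alone, and Cxcl13 is spread in both groups.

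Of the ligands of CXCR3, Cxcl9 and Cxcl10 had the largest changes above 0 in the family, each through 1 array. In such pooled cells, fewer cells with a transcript and less of it per cell cannot be told apart. Cxcl9 (probe set 10531407) stood at 7.17, 8.95, 7.15 and 7.16 on hemophagocytes 2, 3, 5 and 6, against 7.13, 7.13, 6.90 and 7.15 on resting macrophages 3, 4, 5 and 6. Hemophagocyte 3 alone was high, and the other hemophagocyte arrays lay at the level of the resting arrays. The group means were 7.61 ± 0.90 in hemophagocytes and 7.08 ± 0.12 in resting macrophages (SD, n = 4 each), a difference of 0.53 log2 units (SE 0.34, 95% interval -0.23 to 1.29, limma adjusted p = 0.763). On a linear scale that interval runs from 0.853-fold to 2.45-fold. Without hemophagocyte 3 the change was 0.082 (SE 0.082), and with the array background as a covariate it was -0.17.

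Cxcl10 (probe set 10531415) was high on another array than Cxcl9. It stood at 7.24, 7.06, 7.99 and 7.25 on hemophagocytes 2, 3, 5 and 6, against 7.16, 7.21, 7.24 and 7.07 on resting macrophages 3, 4, 5 and 6. Hemophagocyte 5 alone was high, and hemophagocyte 3, the array with high Cxcl9, gave the lowest Cxcl10 value of all 8, just under resting macrophage 6. The means were 7.39 ± 0.41 in hemophagocytes and 7.17 ± 0.08 in resting macrophages (SD, n = 4 each), a log2 change of 0.22 (SE 0.17, 95% interval -0.15 to 0.58, limma adjusted p = 0.785). Without hemophagocyte 5 the change was 0.015, and with the array background as a covariate it was 0.45 (SE 0.17, limma adjusted p = 0.972). Cxcl10 was thus high on 1 hemophagocyte array and Cxcl9 on another. A link of these values to the motifs in the upstream windows was not tested. Of the 11 measured macrophage markers, 7 had changes above 0 and 4 below, and 3 spanned more than 1 log2 unit over the 8 arrays. On hemophagocyte 5 these 3 were Cd68 at 10.52, the surface receptor Adgre1 at 7.38 and the complement subunit C1qa at 8.37, against 5.67 to 5.89 for Adgre1 and 7.10 to 7.35 for C1qa on resting arrays. Their part in the Cxcl10 value was not tested.

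Cxcl11 (probe set 10531420), the pseudogene of this strain, lay between 5.78 and 6.04 on hemophagocyte arrays and between 5.95 and 6.03 on resting arrays. Its log2 change was -0.06 (95% interval -0.23 to 0.10, limma adjusted p = 0.858). The interval leaves out a fold change of the array signal above 1.07 or below 0.855. A value this low cannot be told from no transcript, so the interval may not bound the change of the transcript. It was high neither on hemophagocyte 3 (5.78, its lowest value) nor on hemophagocyte 5 (5.92).

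**Figure D2:**
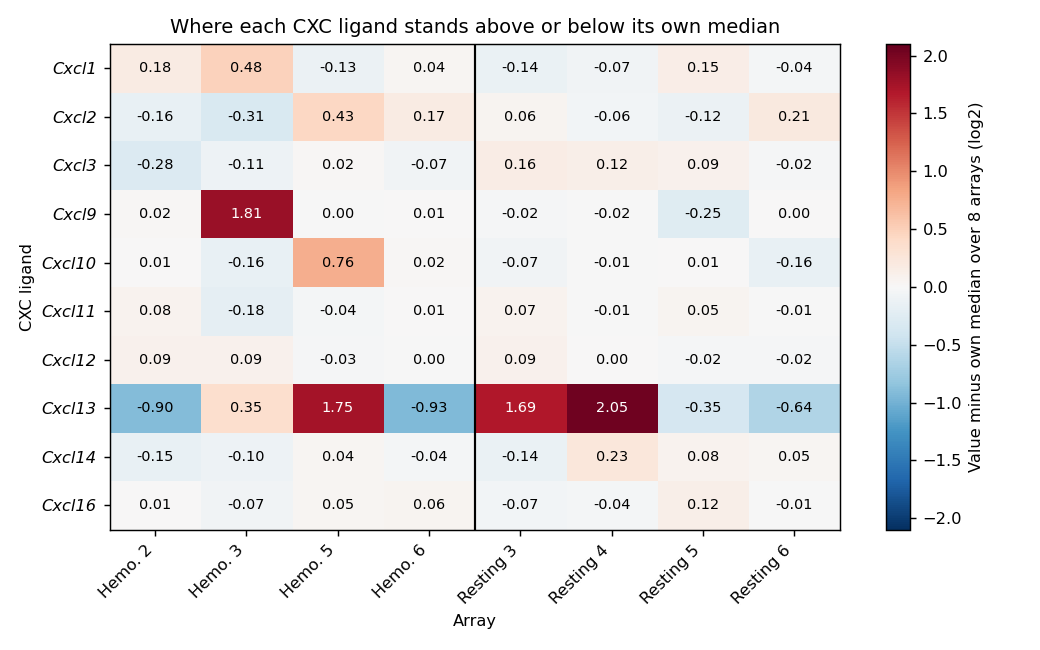
Value of each ligand (rows) on each array (columns) minus that gene's own median over the 8 arrays, in log2 units, with hemophagocytes left of the line. Cxcl9 is 1.81 above its median on hemophagocyte 3, Cxcl10 is 0.76 above on hemophagocyte 5, and Cxcl13 is 1.69 to 2.05 above on hemophagocyte 5 and resting macrophages 3 and 4.

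The same distance above the median was counted over all genes of these arrays. On hemophagocyte 3, 91 genes (0.456%), Cxcl9 included, stood at least as far above their own median as Cxcl9, which was 1.81 above. On hemophagocyte 5, 200 genes (1.0%) stood at least as far above as Cxcl10, itself included. Of the genes more than 1 log2 unit above their median, 55 were so on both of these arrays, which is 35.7% of those on hemophagocyte 3 and 34.6% of those on hemophagocyte 5. Cxcl9 was not among the shared ones.

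Some markers of other cells were high on hemophagocyte 3 and others low. S100a8 and S100a9, calcium-binding proteins abundant in neutrophils, stood at 8.02 and 9.12 there. The resting arrays gave 4.86 to 5.02 for S100a8 and 6.12 to 6.34 for S100a9. On hemophagocytes 2, 5 and 6, S100a8 stood at 4.60, 6.41 and 5.12, and S100a9 at 6.35, 6.01 and 7.33. Over the 10 neutrophil markers the mean level was 6.30 to 6.76 on hemophagocyte arrays and 6.25 to 6.32 on resting arrays. Of the 10, 4 had changes above 0 and 6 below, and only S100a8 and S100a9 spanned more than 1 log2 unit over the 8 arrays. Bst2, an interferon-induced surface protein listed here with dendritic cell markers, stood at 9.23 on hemophagocyte 3 and at 6.91 to 7.14 elsewhere. The 9 dendritic cell markers averaged 6.64 to 6.88 on hemophagocyte arrays and 6.74 to 6.80 on resting arrays, and 2 of 9 had changes above 0 and 7 below. The mean levels of the NK, B and T cell markers, 5.92, 6.22 and 6.45 on hemophagocyte 3, were the lowest of the 8 arrays. That array was also the lowest in its median over all genes, 6.22, against 6.27 to 6.30 on the others. The part of these cell markers in the Cxcl9 value was not tested.

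The neutrophil-attracting ligands did not share one pattern over the arrays. Cxcl1 (probe set 10523151) stood at 7.85, 8.15, 7.54 and 7.72 on hemophagocytes 2, 3, 5 and 6, against 7.53, 7.60, 7.82 and 7.63 on resting macrophages 3, 4, 5 and 6. Only hemophagocytes 2 and 3 exceeded every resting array. Its log2 change was 0.17 (SE 0.12, 95% interval -0.10 to 0.44, limma adjusted p = 0.772), and 0.057 without hemophagocyte 3. Cxcl2 (probe set 10523156) stood at 5.79, 5.64, 6.38 and 6.13 on the same hemophagocyte arrays, against 5.84 to 6.16 on resting arrays. Here hemophagocyte 3 was the lowest of the 8 arrays and hemophagocyte 5 the highest, the reverse of Cxcl1 among hemophagocytes. The log2 change was 0.0077 (95% interval -0.32 to 0.34). Both Cxcl2 group means, 5.98, lay within the array means of the olfactory and vomeronasal receptor genes, 5.74 to 6.16. Hemophagocyte 3 had the lowest of these array means and hemophagocyte 5 the highest among hemophagocytes. The part of array background in the Cxcl2 order was not tested, and its interval may not bound the change of the transcript.

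Cxcl3 (probe set 10523138) was the one member past an unadjusted p of 0.05, and it was lower in hemophagocytes. It stood at 6.58, 6.74, 6.88 and 6.79 on hemophagocytes 2, 3, 5 and 6, against 7.02, 6.97, 6.95 and 6.83 on resting macrophages 3, 4, 5 and 6. The groups overlapped only through hemophagocyte 5, which lay above resting macrophage 6. The means were 6.74 ± 0.13 in hemophagocytes and 6.94 ± 0.08 in resting macrophages (SD, n = 4 each), a log2 change of -0.20 (SE 0.08, 95% interval -0.38 to -0.02, limma unadjusted p = 0.034, adjusted p = 0.747). The change stayed between -0.24 and -0.14 when single arrays were left out. Olfactory and vomeronasal receptor genes, sensory genes used here as a gauge of array background, gave -0.15 as their median change, and the part of that shift in the Cxcl3 value was not tested beyond the covariate fit, where the change was -0.18.

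**Figure D3:**
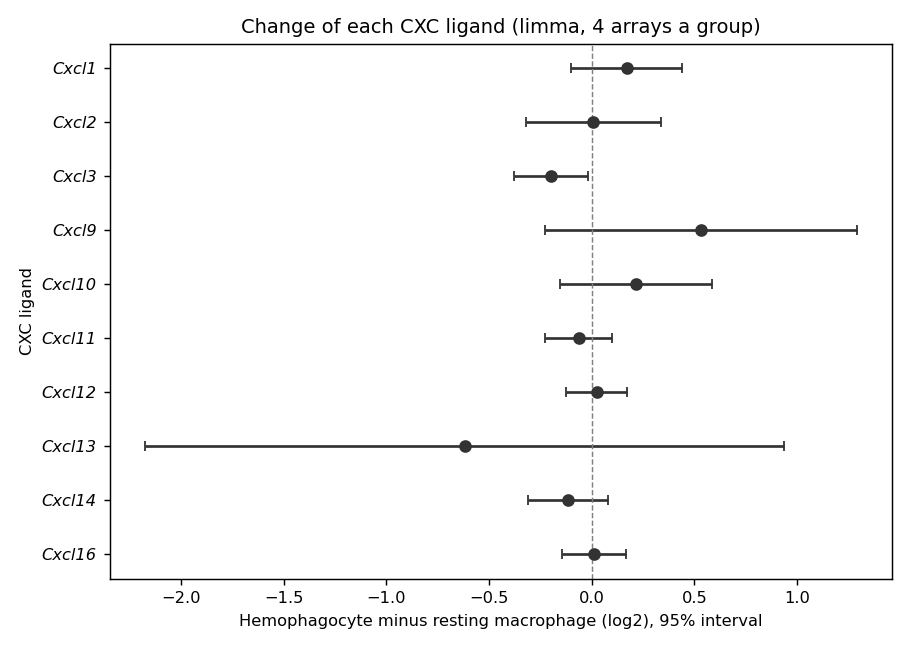
Log2 change of each ligand, hemophagocyte minus resting macrophage, as points with 95% intervals from limma's fit over all genes (horizontal axis, 4 arrays a group). The intervals span 0 for 9 ligands, that of Cxcl3 runs from -0.38 to -0.02, and those of Cxcl9 and Cxcl13 are the widest.

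Cxcl13 (probe set 10523359), the B cell attractant, had the widest range of the family, 2.98 log2 units over the 8 arrays. It stood at 6.87, 8.13, 9.53 and 6.85 on hemophagocytes 2, 3, 5 and 6, against 9.47, 9.82, 7.43 and 7.14 on resting macrophages 3, 4, 5 and 6. High and low arrays occurred in both groups, and the highest value was a resting one. The means were 7.85 ± 1.27 in hemophagocytes and 8.46 ± 1.38 in resting macrophages (SD, n = 4 each), a difference of -0.62 log2 units (SE 0.70, limma adjusted p = 0.85). Its 95% interval of -2.17 to 0.94, or 0.222-fold to 1.92-fold, leaves the direction unresolved, and single arrays left out moved the change between -1.18 and -0.17. Of these, the value without resting macrophage 4 was nearest to 0, and that without hemophagocyte 5 furthest from it. Without hemophagocytes 3 and 5 together it was -1.60 (SE 0.67, limma adjusted p = 0.963). With the replicate number as a block it was 0.16, a fit in which only the arrays numbered 3, 5 and 6 inform the change. Hemophagocyte 2 and resting macrophage 4, the array of highest Cxcl13, have no partner of the same number.

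On hemophagocyte 5, 64 genes, Cxcl13 included, stood at least as far above their own median as Cxcl13 did. On the 2 resting arrays with high Cxcl13 this number was 6 for resting macrophage 3 and 7 for resting macrophage 4, again with Cxcl13 among them. Of 12 markers of stromal and follicular dendritic cells, the main makers of Cxcl13 in follicles, 11 were measured. Their mean level was 6.52 to 6.59 on hemophagocyte arrays and 6.56 to 6.66 on resting arrays, and none spanned more than 1 log2 unit. The complement receptor Cr2, which marks follicular dendritic and B cells, stood at 5.98, 5.68, 5.98 and 6.02 on hemophagocytes 2, 3, 5 and 6, against 5.89, 6.07, 6.13 and 6.10 on resting macrophages 3, 4, 5 and 6. It did not follow the high Cxcl13 arrays. Its level was close to the array means of the olfactory and vomeronasal receptor genes, 5.74 to 6.16, so a flat value says little. The 7 measured B cell markers averaged 6.22 to 6.41 on hemophagocyte arrays and 6.32 to 6.45 on resting arrays, and none of them spanned more than 1 log2 unit. The part of stromal, follicular dendritic and B cells in the Cxcl13 values was not tested.

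The remaining ligands each spanned less than 1 log2 unit. Cxcl12 (probe set 10541075) lay between 6.00 and 6.12 on hemophagocyte arrays and between 6.01 and 6.12 on resting arrays, with a log2 change of 0.025 (95% interval -0.12 to 0.17). Cxcl16 (probe set 10387890), the scavenger ligand of macrophages, lay between 6.73 and 6.87 on hemophagocyte arrays and between 6.74 and 6.93 on resting arrays, with a change of 0.0096 (95% interval -0.15 to 0.17). For both genes the interval leaves out a rise or a fall of the array signal of more than 1.13-fold. Cxcl12 lay at the level of the olfactory and vomeronasal receptor genes, whose array means were 5.74 to 6.16. Its interval may therefore not bound the change of the transcript. Cxcl14 (probe set 10409579) stood at 6.06, 6.11, 6.26 and 6.17 on hemophagocytes 2, 3, 5 and 6, against 6.08, 6.45, 6.29 and 6.26 on resting macrophages 3, 4, 5 and 6, with a change of -0.12 (95% interval -0.31 to 0.08, limma adjusted p = 0.783). Its change was -0.06 without resting macrophage 4 and -0.18 without resting macrophage 3. With the array background as a covariate it was -0.026, and with the replicate number as a block -0.029. Hemophagocyte 2 and resting macrophage 4, the array of highest Cxcl14, do not inform the change in the block fit. With group means of 6.15 and 6.27, Cxcl14 also lay close to the level of the receptor genes. The interval of Cxcl14 may therefore not bound the change of its transcript either.

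Across the family 8 of 10 ligands spanned less than 1 log2 unit over the 8 arrays, and 2 spanned more (20.0%, beside 3.0% of all genes). In 7 of 10 the SD was larger among hemophagocytes than among resting arrays (70.0%, beside 60.3% of all genes). Hemophagocyte 3 gave the lowest value of all arrays in 4 ligands and the highest in 2. Its mean over the receptor genes, 5.74, was also the lowest, against 5.95 to 6.07 on the other hemophagocytes and 5.99 to 6.16 on the resting arrays.

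**Figure D4:**
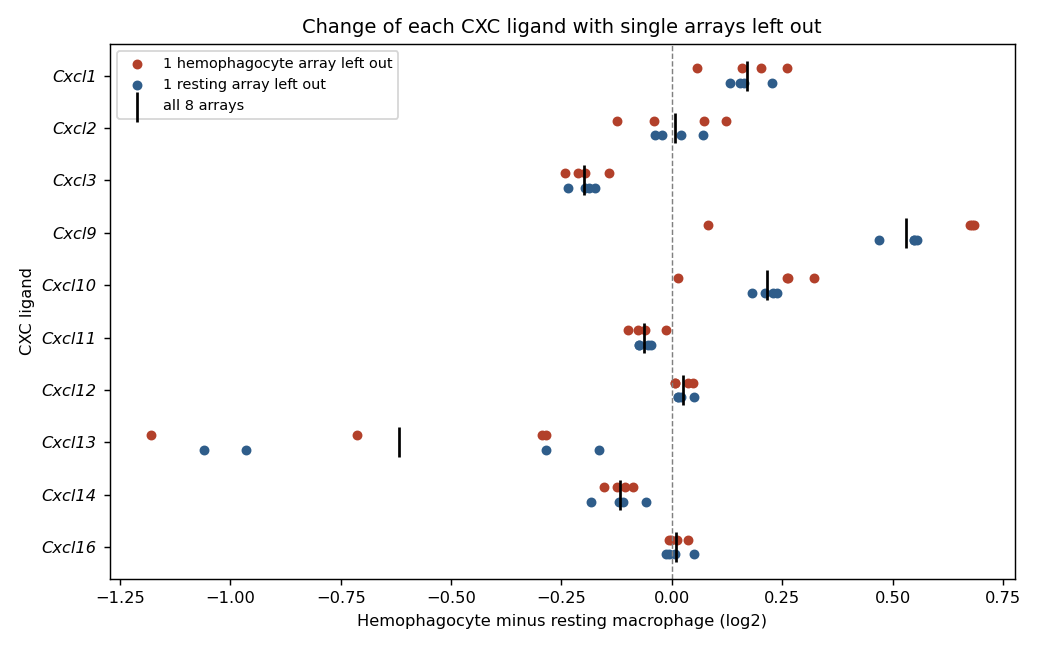
Log2 change of each ligand, hemophagocyte minus resting macrophage, with all 8 arrays (black bars) and with 1 hemophagocyte array (red) or 1 resting array (blue) left out. The change of Cxcl9 is 0.082 without hemophagocyte 3, that of Cxcl10 is 0.015 without hemophagocyte 5, and that of Cxcl13 spreads from -1.18 to -0.17.

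For the 2 ligands that spanned more than 1 log2 unit, the genes with the most similar pattern over the 8 arrays were looked up. Nearest to Cxcl9 by Pearson correlation were Llph (0.994), Pfn1, the actin-binding protein profilin (0.994), and Serp1, which protects membrane proteins in the endoplasmic reticulum (0.992). Their values on hemophagocyte 3 were 7.88, 9.02 and 9.31, each the highest of the 8 arrays. Without hemophagocyte 3 the correlations over the other 7 arrays were 0.621, 0.682 and 0.362. Without resting macrophage 5 as well, they were -0.365, 0.465 and 0.073 over 6 arrays. Spearman correlations over all 8 arrays were 0.452, 0.857 and 0.571.

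Nearest to Cxcl13 were the homeobox gene Dlx1 (Pearson correlation 0.947), Cbwd1 (0.916) and the protease inhibitor gene Serpinb10 (0.916), with Spearman correlations of 0.857, 0.881 and 0.905. Without hemophagocyte 5 and resting macrophage 4, Pearson correlations over the other 6 arrays were 0.927, 0.856 and 0.83. Dlx1 itself moved little, between 6.52 and 6.73 on hemophagocytes and between 6.51 and 6.72 on resting arrays. The genes nearest to Cxcl9 and Cxcl13 were picked as the highest of 16999, with predicted and clone-named genes, pseudogenes, small RNAs and sensory receptor genes passed over, so the correlations carry no test.

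Among the other CXC ligands of the array, Pf4, the platelet factor also called Cxcl4, varied most. It stood at 6.10, 10.35, 9.11 and 5.49 on hemophagocytes 2, 3, 5 and 6, against 6.61, 7.41, 6.61 and 7.26 on resting macrophages 3, 4, 5 and 6 (log2 change 0.79, SE 0.89, limma adjusted p = 0.849). Hemophagocytes 3 and 5 were above all resting arrays, and hemophagocytes 2 and 6 below all of them. Ppbp, another platelet CXC ligand, had a change of -0.20 (adjusted p = 0.747), Cxcl5 one of -0.11 and Cxcl17 one of -0.05. The 7 measured of 8 platelet markers averaged 6.57 to 7.24 on hemophagocyte arrays and 6.76 to 6.90 on resting arrays, and Pf4 alone among them spanned more than 1 log2 unit. None of the 5 other CXC ligands passed, and 1 of 5 had a change above 0.

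The receptors of the family showed no call either. Of 8 CXC receptors, including the atypical receptors Ackr1 and Ackr3, 0 passed over all genes and 6 had changes below 0, with a median of -0.06. Cxcr1 stood at 6.52, 6.66, 6.66 and 6.56 on hemophagocytes 2, 3, 5 and 6, against 6.73, 6.76, 6.86 and 6.72 on resting macrophages 3, 4, 5 and 6. Its groups did not overlap (log2 change -0.17, SE 0.07, limma adjusted p = 0.747), beside 2.9% of all genes that lay lower without overlap. Cxcr6, the receptor of Cxcl16, had a change of -0.15, Cxcr3, that of Cxcl9 and Cxcl10, one of -0.10, and the Cxcl12 scavenger Ackr3 one of 0.06.

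Genes that carry the interferon signal upstream of Cxcl9 and Cxcl10 did not pass. Of 9 interferon gamma signalling genes 8 were measured, with a median change of 0.012 and all changes between -0.09 and 0.08. The receptor chain Ifngr2 had a change of -0.09, Ifngr1 one of 0.03, the kinase Jak1 one of 0.04 and the feedback inhibitor Socs1 one of 0.08. In type I interferon signalling 7 of 8 genes had changes above 0, with a median of 0.08, and 2 were higher at an unadjusted p under 0.05, beside 36.1% of all genes above 0 and 1.53% higher at that p. Both of these were highest on hemophagocyte 5, the array with high Cxcl10, where 159 genes stood over 1 log2 unit above their own median. The part of these 2 signalling genes in the Cxcl10 value was not tested. Irf7, the factor that amplifies interferon responses, stood at 6.40, 6.84, 7.50 and 6.60 on hemophagocytes 2, 3, 5 and 6, against 6.26 to 6.50 on resting arrays (log2 change 0.44, SE 0.19, limma adjusted p = 0.747). The receptor chain Ifnar2 stood at 5.68, 5.72, 6.53 and 5.56 on the same hemophagocyte arrays, against 5.18 to 5.67 on resting arrays (log2 change 0.50, SE 0.19, limma adjusted p = 0.747). The cytokine gene Ifnb1 had a change of -0.17 and the other receptor chain, Ifnar1, one of 0.09.

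**Figure D5:**
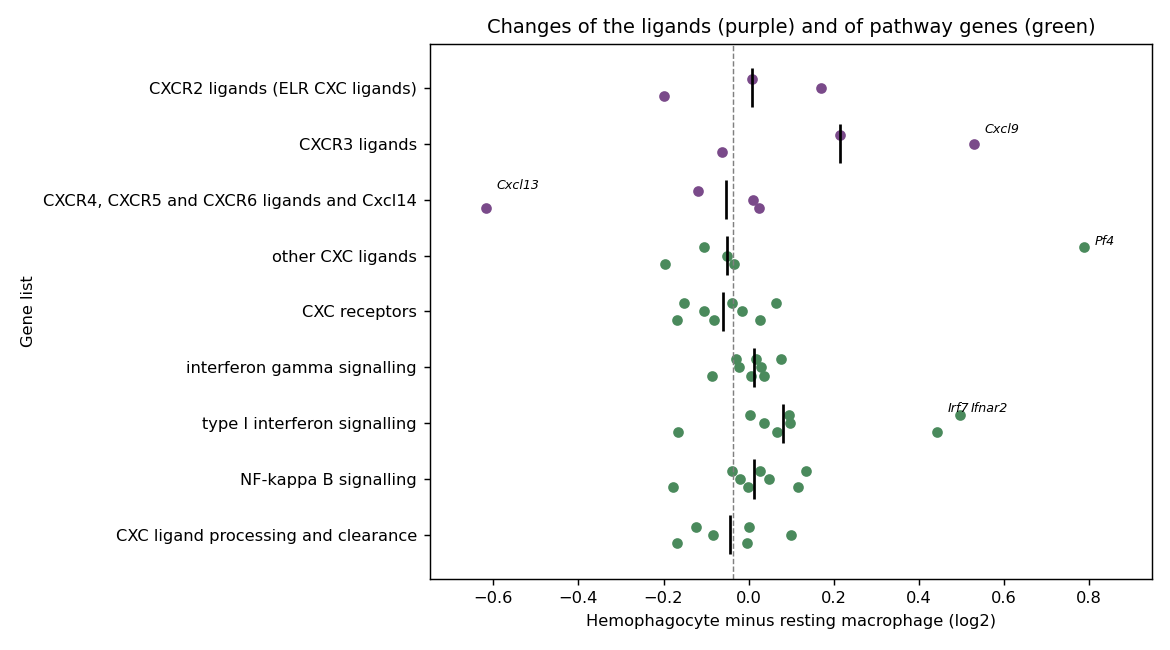
Log2 change, hemophagocyte minus resting macrophage, of every measured gene (points) in the lists of ligands (purple) and pathway genes (green), with list medians as black bars and the median of all genes, -0.04, as a dashed line. List medians lie between -0.06 and 0.22, and the genes furthest from 0 (Pf4, Cxcl13, Cxcl9, Ifnar2 and Irf7) are named.

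NF-kappa B genes and the enzymes that trim CXC ligands likewise held no gene past the test. Of 10 NF-kappa B genes 8 were measured, 4 with changes above 0 and 4 below, and 0 passed. The inhibitor Nfkbia had a change of 0.13, Nfkbiz one of 0.12, the subunit Rela one of -0.18 and Relb one of 0.05. Among 6 proteases that release or clip CXC ligands 0 passed. Adam17 had a change of 0.10, Dpp4, which clips the ends of Cxcl10 and Cxcl12, one of -0.08, and the matrix proteases Mmp2 and Mmp9 had changes of -0.12 and -0.17.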

How the data were processed

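The 8 arrays' values were used as deposited by the authors, log2 expression per probe set, the scale being inferred from the range of values. The submitters' processing notes name Affymetrix Expression Console 1.1. The sources used here do not state the background correction, the probe summary, the normalization or the build. Of 35556 probe sets, 21789 had 1 gene symbol, 1621 had several and 12146 were not listed. Those with 1 symbol were kept, and the probe set of highest mean stood for each of 19938 genes, with no filter on dim ones. RefSeq (GRCm38.p6) matched 21698 by Entrez identifier and altered 0 symbols. Its table supplied names, chromosomes and upstream sequences only.

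Groups came from sample titles. In R 4.3.3, limma 3.58.1 was fitted without a block (lmFit, then eBayes) to all genes, with Benjamini-Hochberg adjustment and a threshold of 0.05. Tables and figures were made in Python 3.11.15. Tested on simulated data for this comparison (19938 genes, 10 draws), the fit recovered 96.2% of genes moved by 1 log2 unit and 98.4% of those moved by 2, with 9.8 false calls a draw. The simulated noise was normal and independent between genes, which real arrays need not follow. These shares are averages over genes and do not hold for widely spread ligands such as Cxcl9 (SE 0.34) and Cxcl13 (SE 0.70).

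The members and gene lists were chosen with earlier results of these data known. All 10 members are named. From each pathway list the 4 genes of smallest p are named, and for members spanning more than 1 log2 unit the 3 genes of highest correlation, predicted and clone-named genes, pseudogenes, microRNAs, small nucleolar RNAs and olfactory and vomeronasal receptors being passed over. Marker genes are named where they stand beside a result. Alternatives were cyclic loess, quantile or median normalization, genes above the median level only, array weights, eBayes with a robust prior and intensity trend, averaged probe sets per gene, single arrays left out, hemophagocytes 3 and 5 left out, the replicate number as a block, and array background (mean of 1196 receptor genes) as a covariate.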

Additional observations from a re-analysis of the deposited data

Results flagged for a closer look

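Within each group of 4 arrays, the highest and the lowest value of the members, the named pathway genes and the most variable markers were set against the rest of the group. A value was picked out where its gap to the next array was above Dixon's 95% limit, as a share of the group's range. Of the 20 groups of the members 2 held such a value, where chance gives about 5%. Of 82 groups in all 6 did, but the other genes were chosen for small p or wide spread, so no chance share applies to them. Cxcl9 at 8.95 on hemophagocyte 3 stood apart from the other 3 hemophagocytes. On resting macrophage 5, Cxcl9 at 6.90 lay below the other resting arrays. Ifnar2 at 6.53 and the macrophage marker Adgre1 at 7.38 stood apart on hemophagocyte 5, and Bst2 at 9.23 on hemophagocyte 3. Mmp2 at 6.47 on resting macrophage 6 lay below resting arrays that differed among themselves by very little.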

How the results depend on the processing

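Under 18 alternative settings, 0 ligands were called higher and 0 lower, and the smallest adjusted p of a ligand was 0.58 (limma). Cxcl1, Cxcl3, Cxcl10 and Cxcl14 kept their direction in all settings that gave a value, and the other 6 did not. Cxcl2 ran from -0.12 to 0.12 and Cxcl16 from -0.013 to 0.050 when single arrays were left out, and Cxcl2 was -0.018 and Cxcl11 0.014 without hemophagocytes 3 and 5. With array background as a covariate, Cxcl9 was -0.17 and Cxcl12 -0.037, and the cause was not tested. With the replicate number as a block, Cxcl13 was 0.16 and Cxcl16 -0.0044. Leaving out the dimmer genes gave no value for Cxcl2, Cxcl11, Cxcl12 and Cxcl14. Over all genes, 2 were called higher and 0 lower. With median centring, cyclic loess, the intensity trend or the background covariate it was 1 higher, with the replicate block 7, and with single arrays left out 1 to 11. The 11 came without hemophagocyte 2, and 1 without hemophagocyte 6, resting macrophage 5 or resting macrophage 6. The numbers 3, 5 and 6 occur in both groups, and only arrays with these numbers inform the change when the replicate number is a block. Deviations of same-numbered arrays correlated at 0.174, 0.066 and 0.118, and 4 of 6 arrays correlated best with their own number. With only 3 shared numbers some such matches arise by chance, so this count does not settle whether the arrays are paired. The labels do not say that a number marks a shared origin.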
